A study of Vitis vinifera with 6 samples.

Results

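A set of 132 berry genes differed strongly from plot to plot within both treatments of a field trial on the table grape Black Magic (Vitis vinifera). Members were chosen from the measured values. Mean expression over the 6 libraries had to lie between 5 and 1000 CPM (read counts scaled to library size, with TMM factors), the highest library had to reach at least 2.5 times the lowest within GDPH and also within Control, and the GDPH and Control ranges had to overlap. The rule selected 132 of 16030 tested genes (0.823%), out of 35134 annotated genes. GDPH vines were given a protein hydrolysate derived from corn gluten (SURNAN), a source of peptides and amino acids, and Control vines were given urea. Both were supplied to the soil with irrigation water at veraison and carried 1.25 kg of nitrogen per hectare. All vines shared the cultivar, the 1103P rootstock and a plastic cover. Each library was a pool of 10 berries from each of 7 vines of 1 plot, with the seeds removed, sampled 14 days after treatment. Of 4 plots per treatment 3 were sequenced (n = 3 each), and no vines were left without nitrogen.

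Veraison is the onset of ripening, when the berry softens, colours and gains sugar and many transcripts change steeply. Berries of a cluster and vines of a vineyard do not all enter ripening at the same time. Deseeded berries consist mainly of skin and flesh. A pooled library averages over many berries, so that fewer cells of a type and less RNA per cell cannot be told apart. The tissue label was not checked against markers, because no identifier could be matched to a gene name.

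The GDPH libraries held 15959768 to 18763377 estimated counts and the Control libraries 15092687 to 16390121. A count of 3, the limit that a count of 0 allows, equals 0.169 to 0.202 CPM in GDPH and 0.173 to 0.187 CPM in Control, for counting error only. Every one of the 132 members had exact 95% Poisson intervals that separated the highest from the lowest library in both treatments. The rule selects for wide spread, so this separation follows largely from it. The median of the 11851 genes averaging 5 to 1000 CPM was 29.0 to 29.6 CPM in the GDPH libraries and 29.3 to 29.9 CPM in the Control libraries, after TMM scaling, which itself brings typical genes to a like level.

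The rule was strict in its demand on both treatments at the same time. Of the 11851 genes in the abundance range, 319 reached the ratio of 2.5 within GDPH, 304 reached it within Control and 141 reached it in both. In 9 of these 141 the GDPH and Control ranges were apart, which left the 132 members. Over all 11851 genes the ranges overlapped in 59.4%. Wide ranges overlap more readily, so nothing is read from the 9. Among members the highest over lowest ratio had a median of 4.31 within GDPH (2.53 to 160) and 5.66 within Control (2.53 to 4212). Over all 11851 genes the medians were 1.21 within GDPH and 1.22 within Control. Both ratios reached 5 in 45 members, 10 in 21 members and 100 in 3 members. Since these values chose the members, they are a description.

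**Figure D1:**
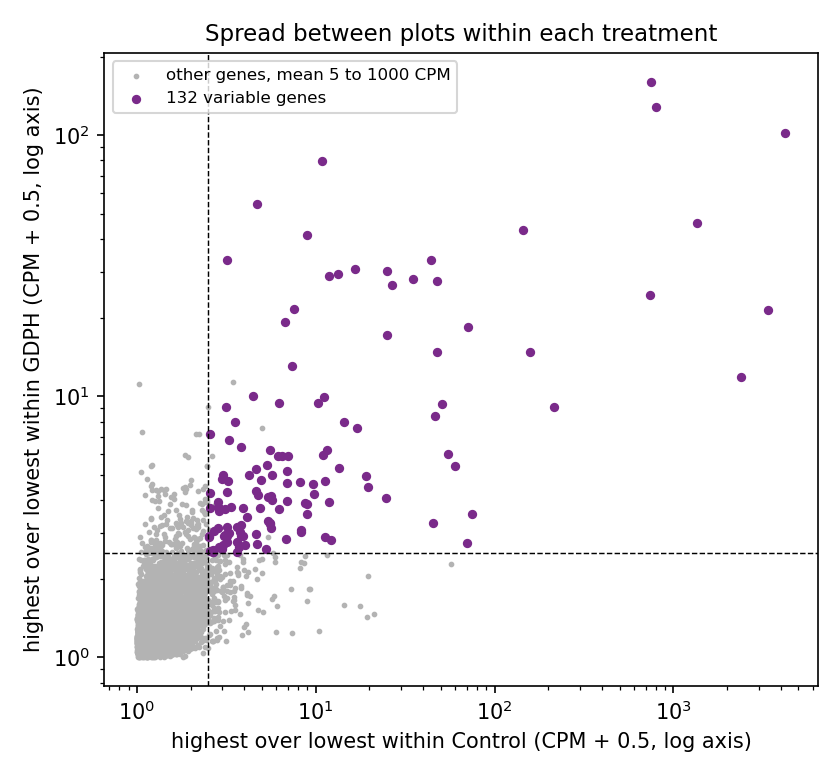
Highest over lowest library within GDPH (vertical) and within Control (horizontal) for genes averaging 5 to 1000 CPM, both as CPM + 0.5 on log axes, with dashed lines at 2.5. The 132 members are purple and other genes grey, and the members reach a ratio of 4212 within Control and 160 within GDPH.

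The members just inside the ratio threshold had a smaller ratio of 2.528 and 2.531, and the genes just outside had 2.489 and 2.474. The member of lowest mean had 5.07 CPM, and the next gene below the limit had 4.98 CPM. No gene (0) at or above 1000 CPM met the other conditions. The list is thus cut from a continuous range. Leaving out 1 library and applying the rule to the remaining 5 gave 34 members without GDPH replicate 1, 78 without GDPH replicate 2, 106 without GDPH replicate 3, 78 without Control replicate 1, 99 without Control replicate 2 and 57 without Control replicate 3. All 34 and all 78 found without GDPH replicate 1 and without Control replicate 1 were among the 132.

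The same plot number held the highest value in both treatments for most members. The highest GDPH library and the highest Control library carried the same replicate number in 115 of 132 members (87.1%, exact 95% binomial interval 80.2 to 92.3%), against 48.5% of all tested genes and 50.7% of those averaging 5 to 1000 CPM. The rule used ranges and not replicate numbers. It held for 4 of the 9 genes that met the ratios but whose ranges were apart. Genes are not independent, the interval treats them as if they were, and only 6 matchings of 3 with 3 libraries exist, so that no test over plots could give a one-sided p below 0.167. With 1 library left out and the remaining pair of numbers compared, the share was 50% without GDPH replicate 1, 67.9% without GDPH replicate 2 and 67.7% without Control replicate 2. It was 97.2% without GDPH replicate 3, 94.9% without Control replicate 1 and 94.7% without Control replicate 3. Over a pair of numbers, unrelated plots would match in 50% of genes on average. The share without GDPH replicate 1 was thus no higher than that level. The 48.5% of all tested genes is for 3 libraries and is no measure for these shares, and none over a pair was computed.

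For the lowest plot the share was below that of all tested genes. The lowest library had the same number in both treatments in 42 members (31.8%, exact 95% binomial interval 24.0 to 40.5%), against 44.6% of tested genes. Control values tied at 0 left 16 members with no lowest library, and over the remaining 116 the share was 36.2%, against 44.7% of tested genes without ties. Control 3 was the lowest Control library in 97 members (73.5%), against 35.0% of tested genes. In GDPH the lowest values were spread, with 58 members lowest in GDPH 1, 42 in GDPH 2 and 32 in GDPH 3. These were 43.9, 31.8 and 24.2% of members, against 38.4, 29.7 and 31.9% of tested genes, so the GDPH shares lay nearer to those of tested genes than the Control 3 share did. The full order of the 3 plots was the same in both treatments in 38 members (28.8%), against 27.1% of tested genes.

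**Figure D2:**
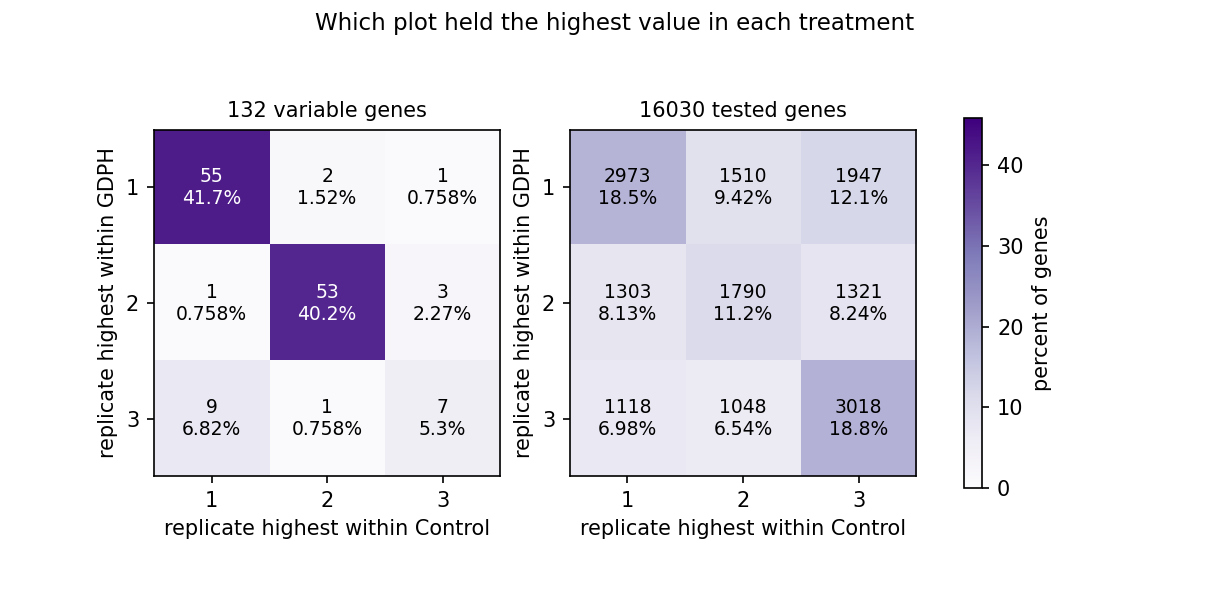
Number and percent of genes by the replicate that was highest within GDPH (rows) and within Control (columns), for the 132 members and for the 16030 tested genes, with colour for percent and genes tied for highest not shown. Members gather at replicate 1 in both treatments (55 genes) and replicate 2 in both (53 genes), while 7 were highest in replicate 3 of both.

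A few profiles covered most of the set. The order GDPH 2, GDPH 3, GDPH 1 from high to low together with Control 2, Control 1, Control 3 was found in 50 members (37.9%), against 4.68% of other genes averaging 5 to 1000 CPM. GDPH 1, GDPH 3, GDPH 2 with Control 1, Control 2, Control 3 was found in 25 members (18.9%, against 3.86%), with Control libraries tied at 0 listed by number. GDPH 1, GDPH 2, GDPH 3 with Control 1, Control 2, Control 3 was found in 24 members (18.2%, against 8.99%). The members were therefore divided into 5 groups for description. These were 21 genes with at most 3 counts in both Control 2 and Control 3, 38 other genes highest in replicate 1 of both treatments, 53 highest in replicate 2 of both, 7 highest in replicate 3 of both and 13 others.

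**Figure D3:**
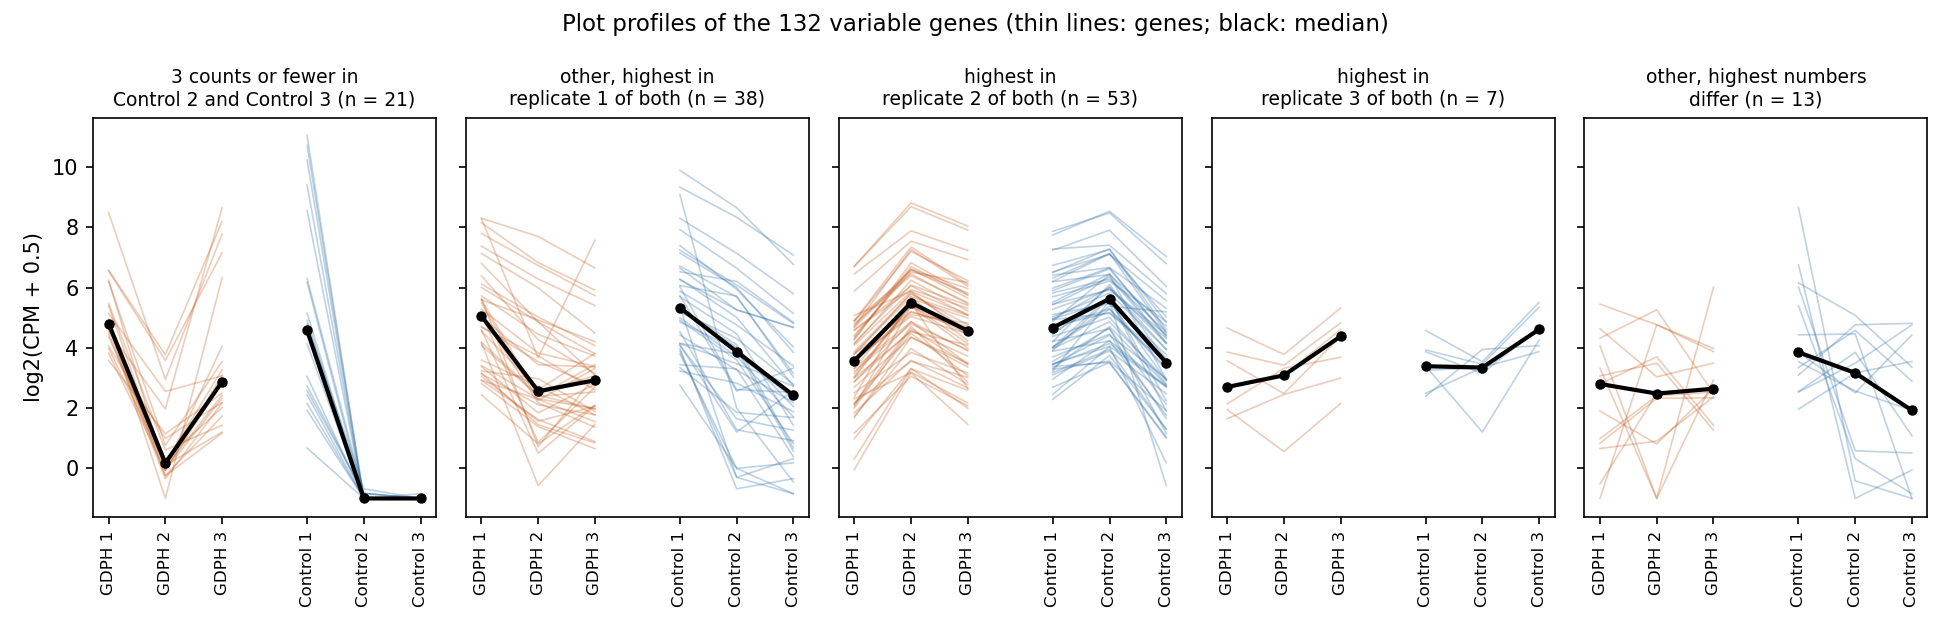
Log2(CPM + 0.5) of each member (thin lines) in the GDPH libraries (left, orange) and Control libraries (right, blue), in 5 groups, with the group median in black. Genes highest in replicate 2 of both treatments have a median of 44.6 CPM in GDPH 2 and 48.9 CPM in Control 2, and the 21 genes of the first panel have a median of 0 CPM in Control 2 and in Control 3.

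A group of 21 genes was close to absent from Control 2 and Control 3, while their values in Control 1 ran from 1.09 to 2106 CPM. Their counts were 18 to 34626 in Control 1, at most 2 in Control 2 and at most 1 in Control 3, where 17 and 20 of the 21 stood at 0. In GDPH all 21 were lowest in GDPH 2, with a median of 27.4 CPM in GDPH 1, 0.628 CPM in GDPH 2 and 6.81 CPM in GDPH 3, and 17 were highest in GDPH 1 and 4 in GDPH 3. The Control medians were 23.4 CPM in Control 1 and 0 in the other two. Every gene averaging 5 to 1000 CPM that had at most 3 counts in both Control 2 and Control 3 was a member. A further 33 tested genes with this property had a mean under 5 CPM and were not in the set. Of those 33, 26 were lowest in GDPH 2, 26 were highest in GDPH 1 and 29 were highest in Control 1. Over all tested genes the shares were 29.7% lowest in GDPH 2, 40.1% highest in GDPH 1 and 33.6% highest in Control 1. A gene this low in a pair of Control libraries passes the filter only through the other libraries. The count for Control 1 is therefore partly built in, and the filter may shape the GDPH counts too.

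Vitvi04g02300, on chromosome 4, was in this group and had the widest spread among members averaging at least 20 CPM with the same highest number in both treatments. Its values were 358, 7.25 and 219 CPM in GDPH 1, 2 and 3, and 677, 0 and 0 CPM in Control 1, 2 and 3. The counts behind them were 5310, 127 and 3882 in GDPH, against 11128, 0 and 0 in Control. GDPH 1 was 49.3-fold higher than GDPH 2, and Control 1 was at least 3618-fold higher than either other Control library, taking 3 counts per library as the floor. All GDPH values lay inside the Control range.

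Vitvi12g00526, on chromosome 12, was nearly level between the first plots of the treatments. It had 72.9, 1.20 and 11.1 CPM in GDPH 1, 2 and 3, and 71.6, 0 and 0 CPM in Control 1, 2 and 3. Both first plots stood far above the others, and GDPH 1 was 60.8-fold higher than GDPH 2. Control 1 was at least 383-fold higher than either other Control library.

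In Vitvi14g00269, on chromosome 14, the highest GDPH plot was the third and not the first. The gene had 27.4, 0 and 79.6 CPM in GDPH 1, 2 and 3, and 375, 0 and 0 CPM in Control 1, 2 and 3. GDPH 2, Control 2 and Control 3 held no read (0 counts), while GDPH 3 had 1414 and Control 1 had 6167. GDPH 3 was at least 465-fold higher than GDPH 2, and Control 1 at least 2005-fold higher than Control 2 and Control 3. Vitvi12g00103, on chromosome 12, had a like profile, with 9.49, 0 and 63.7 CPM in GDPH 1, 2 and 3, and 402, 0.249 and 0 CPM in Control 1, 2 and 3. Its 4 counts in Control 2 put it outside the 21 genes and among the 13 others.

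**Figure D4:**
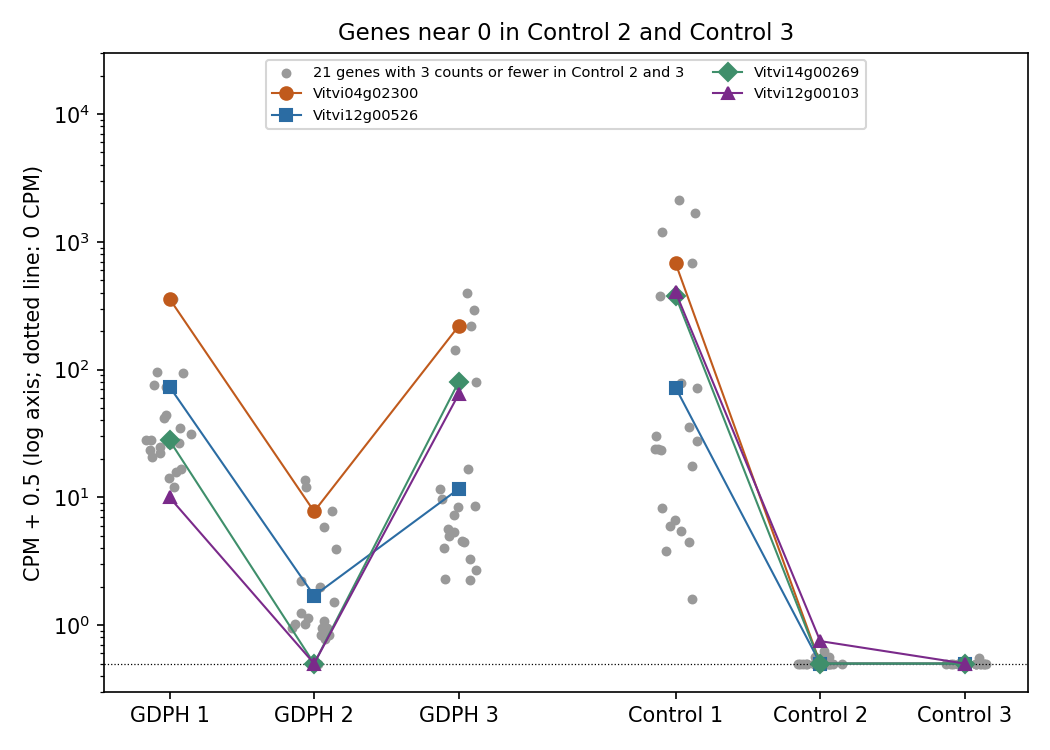
CPM + 0.5 on a log axis in each library for the 21 genes with at most 3 counts in Control 2 and Control 3 (grey points) and for 4 printed genes (coloured lines), with a dotted line at 0 CPM. GDPH 1, GDPH 3 and Control 1 hold high values, GDPH 2 holds values of at most 13.1 CPM in the grey points, and Control 2 and Control 3 lie on or next to the line.

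The 3 genes of highest mean CPM among the 21 were ranked 1, 2 and 7 in the set. The first, on chromosome 7, had 22.9, 3.43 and 399 CPM in GDPH 1, 2 and 3, and 2106, 0 and 0 CPM in Control 1, 2 and 3. The second has the next identifier number on chromosome 7 and had 94.7, 13.1 and 292 CPM in GDPH, against 1690.1, 0 and 0 CPM in Control. Both held fractional counts, the mark of reads divided between genes or copies, so the split between them is uncertain. On chromosome 19, the gene of rank 7 held whole counts and had the highest mean of all members per length. Its TPM was 274, 33.9 and 442 in GDPH 1, 2 and 3, and 4335, 0 and 0 in Control 1, 2 and 3.

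The 21 genes shared their near-zero Control plots but not their proportions. The ratio of GDPH 1 to Control 1, on CPM + 0.5, ran from 0.0111 to 17.6 with a median of 1.02. The gene of rank 1 stood at the low end, and the gene of rank 131, on chromosome 12, at the high end, with 27.6 CPM in GDPH 1 and 1.09 CPM in Control 1. The ratio of GDPH 3 to GDPH 1 ran from 0.0610 to 17.1 with a median of 0.238. The 21 genes therefore did not vary together by 1 common factor.

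The 38 other genes highest in replicate 1 of both treatments were mostly graded, with some near 0 in Control 2 and Control 3. Their median was 32.7, 5.40 and 7.12 CPM in GDPH 1, 2 and 3, and 39.8, 14.2 and 4.88 CPM in Control 1, 2 and 3. Highest in mean CPM was the gene of rank 3, on chromosome 2, with 165, 77.3 and 41.9 CPM in GDPH and 946, 401 and 109 CPM in Control. On chromosome 16, the gene of rank 5 had 221, 106 and 52.7 CPM in GDPH, against 644, 321 and 134 CPM in Control. In both genes the plots followed the same order in each treatment, as in 28 of the 38. On chromosome 12, the gene of rank 9 had much the same values in the first plots, with 314, 207 and 100.04 CPM in GDPH and 314, 140.1 and 55.1 CPM in Control. Rank 10, on chromosome 7, resembled the near-absent genes, with 311, 12.3 and 189 CPM in GDPH and 541, 3.49 and 0.231 CPM in Control. The genes of ranks 70, 87, 108, 115 and 124 had under 1 CPM in both Control 2 and Control 3. The limit of 3 counts thus cuts a continuous range.

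The 53 genes highest in replicate 2 of both treatments shared 1 profile almost throughout. Their median was 11.4, 44.6 and 23.2 CPM in GDPH 1, 2 and 3, and 24.9, 48.9 and 10.9 CPM in Control 1, 2 and 3. In 50 of the 53 the remaining plots were ordered in opposite ways, with GDPH 3 above GDPH 1 and Control 1 above Control 3. The peaks were of like height, with GDPH 2 at 0.502 to 1.72 times Control 2 and a median of 0.899. GDPH 1 had a median of 0.395 times Control 1 and was higher in 3 of 53 genes, whereas GDPH 3 had a median of 2.28 times Control 3 and was higher in 52 of 53.

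The 2 genes of highest mean CPM among the 53, of ranks 4 and 6, are both on chromosome 18. The gene of rank 4 had 104, 448 and 263 CPM in GDPH 1, 2 and 3, and 232, 355 and 111 CPM in Control 1, 2 and 3. At rank 6 the values were 104, 410.5 and 239.9 CPM in GDPH, against 214, 369 and 129.99 CPM in Control. Both genes had their GDPH peak above their Control peak and their GDPH 1 value below every Control value. The genes of ranks 11 and 12, on chromosomes 9 and 3, repeated the profile. They had 87.0, 235 and 149 CPM in GDPH with 155, 169 and 55.2 CPM in Control, and 58.4, 185 and 121 CPM in GDPH with 150.4, 239 and 65.2 CPM in Control.

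The 7 genes highest in replicate 3 of both treatments had moderate ratios, of 2.56 to 3.74 within GDPH and 2.56 to 8.27 within Control. All 7 had the same order of plots in both treatments. On chromosome 14, the gene of rank 50 had 24.7, 13.2 and 39.4 CPM in GDPH 1, 2 and 3, and 23.4, 11.1 and 45.0 CPM in Control 1, 2 and 3. On chromosome 13, the gene of rank 63 had 14.0, 10.2 and 27.9 CPM in GDPH and 14.7, 10.5 and 40.2 CPM in Control. Its values differed little between treatments in the first and second plots.

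The 13 others followed no common profile, with 6 highest in Control 1, 3 in Control 2 and 4 in Control 3. The gene of rank 94, which its identifier places on no chromosome, had 16.2, 0 and 7.09 CPM in GDPH 1, 2 and 3, and 21.0, 21.5 and 0 CPM in Control 1, 2 and 3. It held fractional counts. On chromosome 7, the gene of rank 62 was high in a single library, with 0.202, 5.08 and 5.91 CPM in GDPH and 107, 0 and 0.462 CPM in Control.

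Summed over the 132 members, the libraries were closer to each other in GDPH than in Control on the CPM scale. The sum was 4679, 4904 and 4260 CPM in GDPH 1, 2 and 3 (0.436, 0.458 and 0.413% of the counts), and 13876, 5700.0 and 1861 CPM in Control 1, 2 and 3 (1.46, 0.606 and 0.197%). The highest was 1.15 times the lowest in GDPH and 7.46 times in Control. Means were 4614 ± 327 CPM in GDPH and 7146 ± 6137 CPM in Control (SD, n = 3 each), a difference of -2531 CPM. Members were chosen for overlapping ranges, so this is a description without a test. Without the 21 near-absent genes, which alone gave 6409 CPM in Control 1, the sums were 3582, 4852 and 3036 CPM in GDPH and 7468, 5700 and 1860 CPM in Control. The GDPH totals came from different genes, since GDPH 2 drew 3799 of its 4904 CPM from genes highest in replicate 2 and GDPH 1 drew 969 of 4679 CPM from them.

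**Figure D5:**
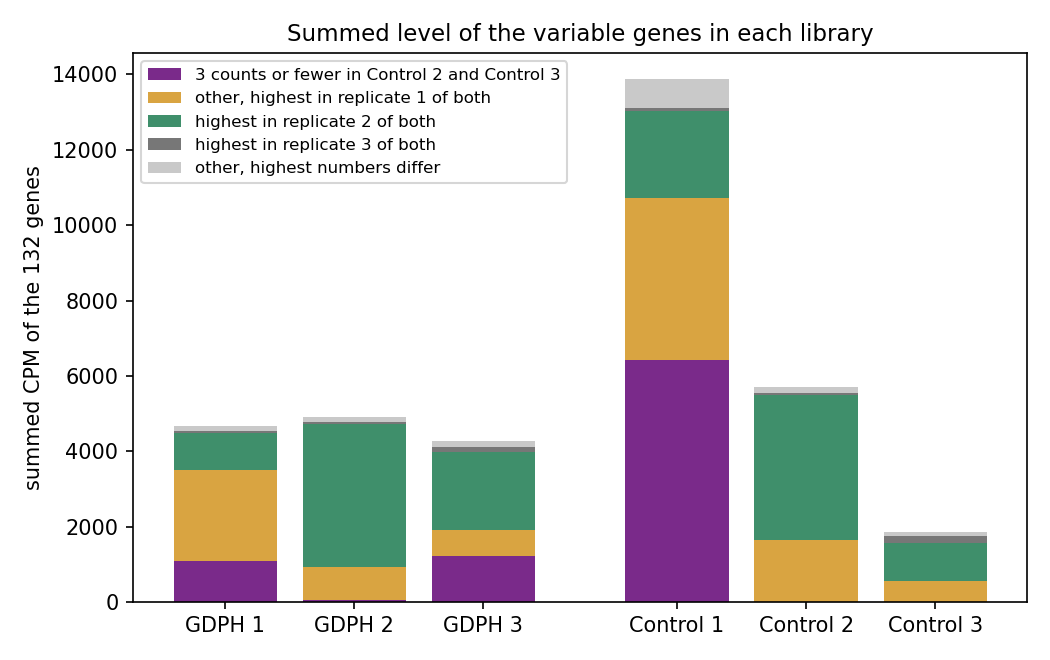
Summed CPM of the 132 members in each library, stacked by group. GDPH libraries reach 4260 to 4904 CPM and Control libraries 1861 to 13876 CPM, and the 21 near-absent genes (purple) give 6409 CPM of the tallest bar.

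A test of replicate number across both treatments passed for 13 of the 132 members, against 0.268% of all tested genes (edgeR quasi-likelihood test with treatment as covariate, adjusted p under 0.05). Since members were chosen for large spread, nothing is read from this share. The 13 were 7 of the 38 other genes highest in replicate 1, 4 of the 7 highest in replicate 3 and 2 near-absent genes. These 2 were also highest in replicate 1 of both treatments. None (0) of the 53 highest in replicate 2 passed. The groups were themselves made by plot profile, so this split is a description. At an unadjusted p under 0.05, 9 of those 53 and 62 of all members passed, against 14.5% of tested genes. The gene of rank 5 had an edgeR adjusted p of 0.019, the lowest among the members and tied with the gene of rank 38. Its log2 difference was -1.03 for replicate 2 over 1 and -2.16 for replicate 3 over 1. None of the 4 printed genes passed, with edgeR adjusted p from 0.36 to 0.79. The count depended on the method. DESeq2 called 53 members (against 3.22% of tested genes), limma-voom 3 (against 0.0187%) and edgeR without the robust option 0 (against 0%). By edgeR, 55 members passed without GDPH replicate 1 (against 1.92% of tested genes), 0 without GDPH replicate 2 (against 0%) and 51 without GDPH replicate 3 (against 1.19%). It was 58 without Control replicate 1 (against 4.8%), 0 without Control replicate 2 (against 0%) and 37 without Control replicate 3 (against 0.477%), and in these fits the number left with a single library still counted.

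GDPH against Control gave no call (0) among the members with edgeR's quasi-likelihood test, against 14.7% of tested genes. The rule required overlapping ranges, so this count is a description. At an unadjusted p under 0.05, 6 members passed, against 31.5% of tested genes. At an adjusted p under 0.05 DESeq2 called 2 members (against 20.7% of tested genes) and limma-voom 0 (against 14.3%). With the replicate number as a block, 30 members passed (22.7%, against 22% of tested genes), 12 higher and 18 lower in GDPH. Of these 30, 22 were among the 38 genes highest in replicate 1, 7 of them higher and 15 lower, and 5 were near-absent genes, all higher, a direction that the low Control values defining the group largely fix. None (0) of the 53 genes highest in replicate 2 passed with the block. The full order of plots was shared between treatments in 28 of those 38 genes and in 2 of those 53. A block removes plot differences that both treatments share. Both groups were made by the plot of the highest value and not by the full order. The counts by group are a description, and why they differ was not tested. The gene of rank 5 was lower in GDPH in all 3 same-numbered plots, with a log2 fold change of -1.53. Its adjusted p by edgeR was 0.21 without the block and 0.00089 with it. The value with the block was the lowest among the members, tied with the gene of rank 38, so the gene is not typical. The labels do not say that same-numbered plots form a block.

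The median difference of GDPH against Control changed from pair to pair of same-numbered plots. The median log2 difference of the members on CPM + 0.5 was -1.07 in pair 1, -0.03 in pair 2 and 1.14 in pair 3, against -0.01, 0.00 and -0.01 over all tested genes. In 26 members GDPH was higher in all 3 pairs and in 24 it was lower in all 3, together 37.9%. This was close to the 35.7% of other genes averaging 5 to 1000 CPM with overlapping ranges. By group the share was 73.7% of the 38 other genes highest in replicate 1 and 5.66% of those highest in replicate 2. It was 85.7% of those highest in replicate 3 and 52.4% of the near-absent genes. In the near-absent genes the signs of pairs 2 and 3 are largely set by how the group was defined, which leaves pair 1, where GDPH was higher in 11 of 21.

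Members tended to have short transcripts. Relative length, taken from the deposited counts and TPM and set to 1 at the median of each library, had a median of 0.802 among members and 1.09 among genes averaging 5 to 1000 CPM. A relative length under 0.3 was found in 22 members (16.7%), against 3.86% of those genes. Of the 22, 14 were among the 38 other genes highest in replicate 1 and 5 were among the 21 near-absent genes. Those 38 genes had a median of 0.506, the near-absent genes 0.796 and the 53 genes highest in replicate 2 had 0.866. Most near-absent genes were also highest in replicate 1 of both treatments.

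Some members belonged to runs of close identifiers that moved together. Fractional counts occurred in 29 members (22.0%), against 12.2% of tested genes. On chromosome 11 lay 11 of the 53 genes highest in replicate 2 (20.8%, against 4.60% of tested genes), and 8 of the 11 held fractional counts. The genes of ranks 14 and 15 were among them, with 29.4, 162 and 68.4 CPM in GDPH and 106, 153 and 28.3 CPM in Control, and with 25.5, 153 and 65.5 CPM in GDPH and 90.0, 156 and 23.7 CPM in Control. On chromosome 4 lay 7 of the 38 genes highest in replicate 1 (18.4%, against 5.80% of tested genes), 6 of them with a relative length of 0.21 and 4 of these 6 with fractional counts. Chromosomes 11 and 4 held the most genes of their groups and were picked out after the values were seen. Of 10 neighbouring pairs with identifier numbers at most 3 apart, 9 had both genes in the same group and 6 had fractional counts in both. The 10 pairs hold 18 genes, so some pairs share a gene, and no such share was computed for other genes. Where reads were divided between genes, the values of the single members are uncertain. With whole-count genes alone the rule found 103 members, of which 92 had the same highest number in both treatments.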

How the data were processed

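RNA-seq libraries were made from deseeded berries of 6 plots, 3 per treatment. Counts per gene are the authors' estimates (RSEM expected counts, not scaled, as deposited). The deposited TPM values cover the same genes and are scaled by the authors for transcript length and library size. Per the submitters' processing notes, the tools were RSEM 1.3.3 and STAR 2.7.9a. Which build, annotation and read filters were used is not given in the sources used here, and all table columns were matched to samples by title.

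The estimated counts were rounded, genes were filtered with filterByExpr (edgeR, groups by treatment, minimum count 10 and minimum total 15), and the 16030 genes kept were scaled by TMM. Members, groups and tests were chosen with earlier results of these data known, and the groups by profile were made after the values were seen. Ratios use CPM + 0.5. For treatment, edgeR's quasi-likelihood test (robust) was fitted with no block. For replicate number, treatment was the covariate and the coefficients of replicates 2 and 3 were tested jointly. P-values were adjusted by Benjamini-Hochberg over all genes tested, with a threshold of 0.05. On simulated counts with known changes both fits recovered most changed genes, with a share of false calls above that threshold.

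Same-numbered libraries deviated together over the 16030 genes after each treatment was centred, with correlations of 0.345, 0.468 and 0.241 for replicates 1, 2 and 3, and of -0.307 to -0.0418 for other pairings. Among the 132 members alone they were 0.534, 0.8 and -0.237, with -0.787 to 0.438 for other pairings, so that the third libraries did not deviate together in the members. The pairing rests on the check over all tested genes. Centring makes the deviations within a treatment cancel. Negative values for other pairings are therefore partly built in and add no separate evidence. The labels describe a block layout without saying that the number is the block.

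None (0) of 35134 identifiers could be matched to a name in the RefSeq gene table, so product lists, including markers of seed and green tissue, were not analysed here. For identifiers without annotation, 4 are printed by rule. Among members averaging at least 20 CPM, these are the pair of widest spread with the same highest number in both treatments and the pair of widest spread with differing numbers, spread being the smaller of the GDPH and Control ratios. Other members are given by their rank in mean CPM among the 132, which serves as a name. The chromosome is read from the identifier. R 4.3.3, edgeR 4.0.16, limma 3.58.1 and DESeq2 1.42.0 were used.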

Additional observations from a re-analysis of the deposited data

How the results depend on the processing

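The rule found 280 members at a ratio of 2, and from 94 to 178 under the 8 other settings (a ratio of 3, RLE factors, library totals, deposited TPM, no filter, pseudocounts of 0.1 and 1, whole counts only). Under all 9 the share with the same highest number stayed within the interval given above. With 1 library left out, members numbered 34 to 106, and the same number was highest, and therefore also lowest, in 50 to 97.2% of them, over a pair of numbers instead of 3. Unrelated plots would match in 50% on average over a pair. The test of replicate number called 5 members with library totals, 21 with no filter, 3 with a filter of 5 CPM in 3 libraries, 0 without the robust option, 53 with DESeq2, 3 with limma-voom, 0 with limma on log2(TPM + 1) and 0 to 58 with 1 library left out, against 13 as reported, so this count is not firm, and these fits called 0 to 4.8% of all tested genes. The treatment test called 30 members with the replicate block (against 22% of tested genes) and 2 with DESeq2 (against 20.7%). With 1 library left out it called 0 to 1 (against 3.4 to 8.8%). As reported it called 0 (against 14.7%). Over all tested genes the block gave 3534 calls, against 2353 without it. On the TPM scale the members summed to 7596, 5915 and 5099 in GDPH 1, 2 and 3, and to 21867 in Control 1, so that GDPH 1 instead of GDPH 2 was the highest GDPH library. The cause was not tested. The widest ratios of the 4 printed genes depend on the pseudocount, since a library at 0 sets them. Depth limits the low values most, and 30 members had at most 3 counts in at least 1 library.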
